A study of Homo sapiens with 2 samples.

Results

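The transcript levels of 10 regulators of Wnt signalling were compared in A549, an established line of human lung adenocarcinoma cells, with and without silencing of ADGRF4, which encodes a receptor of the adhesion GPCR family. The genes were taken by symbol from a list of known pathway members, which was chosen with earlier results of these data known. All 10 were found among the 24462 symbols of the files, each on a single row. The study holds 2 libraries, 1 from A549 cells transfected with control siRNAs and 1 from A549 cells transfected with ADGRF4 siRNAs. Both were cultured in serum-containing DMEM and read at the 3' end of polyadenylated transcripts. The siRNA sequences and the time after transfection are not stated in the labels. With 1 library per treatment there was no replicate, so the treatments were not tested against each other, no p-value is printed, and each interval below covers counting error only.

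In the canonical Wnt pathway, a Wnt protein bridges a Frizzled receptor and the co-receptor LRP5 or LRP6. This halts a destruction complex built on AXIN1 or AXIN2 and APC, which otherwise marks beta-catenin for degradation. Beta-catenin then enters the nucleus and activates genes with TCF/LEF factors such as TCF7L2. The pathway is held in check outside the cell by secreted Dickkopf proteins and at the membrane by ZNRF3 and RNF43, ubiquitin ligases that remove Frizzled receptors. AXIN2, RNF43, ZNRF3 and DKK1 are themselves known as target genes of beta-catenin in several tissues, which makes them negative feedback regulators.

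The control library held 10396047 counts and the ADGRF4 siRNA library 9825320. The silenced gene ADGRF4 was read 3 times in the control library, with an exact Poisson 95% interval of 0.619 to 8.77, and 1 time in the ADGRF4 siRNA library (0.0253 to 5.57). Both values are at or under the limit of 3 counts set for a gene that goes unread, so the silencing was not detectable at this depth and the labels are not checked by it. The 8 markers of A549 and epithelial cells were all read, from 38 counts (EPCAM, ADGRF4 siRNA library) to 79367 (KRT18, the same library). They did not move as 1 group: KRT18 and KRT19 were higher in scaled CPM after ADGRF4 siRNA and the others lower. In the control and ADGRF4 siRNA libraries, scaled CPM was 5389 and 8505 for KRT18 and 12.8 and 14.9 for KRT19. It was 1257 and 807 for KRT8, 111 and 25.6 for CDH1 and 6.85 and 4.07 for EPCAM. For ALDH1A1 it was 3463 and 1480, for AKR1B10 952 and 196 and for NQO1 1679 and 1267. Their part in the differences below was not tested. Of the 11 markers of immune cells, endothelium and fibroblasts, CD14 had 45 and 30 counts and each of the other 10 had at most 7. Of the 4 alveolar type II markers, SFTPB and SFTPA1 were at 0 in both libraries, SFTPC had 0 and 2 counts and NKX2-1 had 6 and 0.

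The RefSeq promoters of DKK1, RNF43 and TCF7L2 hold letters read by TCF/LEF factors and are shown here for that reason. By the 1.5-fold rule given below, DKK1 was called lower after ADGRF4 siRNA, TCF7L2 was called higher and RNF43 lay between the limits. The search was for CTTTGA and CTTTGT on both strands, in windows from 250 bases before to 50 bases after each annotated start (GRCh38.p14). Promoters were found for 6 of the 10 genes, 10 windows in all, and 4 windows held a match. DKK3, ZNRF3, LRP6 and AXIN2 had no entry. Capitals mark the matches, and each sequence is written 5′ to 3′ in the direction of its gene. On the opposite strand the motifs read TCAAAG and ACAAAG.
DKK1 (chr10:52314031-52314330, + strand): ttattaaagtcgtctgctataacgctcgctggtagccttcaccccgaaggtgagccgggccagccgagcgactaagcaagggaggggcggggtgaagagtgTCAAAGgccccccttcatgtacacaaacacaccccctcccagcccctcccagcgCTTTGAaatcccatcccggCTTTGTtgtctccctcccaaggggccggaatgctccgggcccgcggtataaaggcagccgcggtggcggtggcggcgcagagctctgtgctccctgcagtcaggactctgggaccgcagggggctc
RNF43 (chr17:58417485-58417784, - strand): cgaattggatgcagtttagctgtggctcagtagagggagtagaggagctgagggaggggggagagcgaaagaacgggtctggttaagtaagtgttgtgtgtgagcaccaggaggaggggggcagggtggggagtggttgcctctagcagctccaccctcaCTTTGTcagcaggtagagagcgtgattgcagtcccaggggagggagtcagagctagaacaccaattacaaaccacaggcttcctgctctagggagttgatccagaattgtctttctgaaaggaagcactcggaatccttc
RNF43 (chr17:58402672-58402971, - strand): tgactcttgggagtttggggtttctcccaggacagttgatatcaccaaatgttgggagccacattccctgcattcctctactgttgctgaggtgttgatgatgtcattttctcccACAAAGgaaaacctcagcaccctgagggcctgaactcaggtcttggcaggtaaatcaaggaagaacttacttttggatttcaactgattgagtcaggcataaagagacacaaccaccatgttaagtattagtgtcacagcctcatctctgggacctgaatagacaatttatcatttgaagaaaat
TCF7L2 (chr10:113126383-113126682, + strand): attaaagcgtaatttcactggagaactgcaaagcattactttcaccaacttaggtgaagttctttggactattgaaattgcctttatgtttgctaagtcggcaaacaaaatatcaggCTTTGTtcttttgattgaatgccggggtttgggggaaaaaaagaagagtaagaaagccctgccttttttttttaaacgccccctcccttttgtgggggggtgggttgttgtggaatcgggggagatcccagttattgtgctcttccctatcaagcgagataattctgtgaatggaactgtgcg
The DKK1 window held 3 matches, CTTTGA in each orientation and CTTTGT once, and was the only one of the 10 windows with both motifs. Of all 35116 promoter windows of that length, 12.9% held CTTTGA, 16.1% held CTTTGT, 26.2% held either and 2.81% held both. The other 2 TCF7L2 windows and those of APC, AXIN1 and LRP5 held neither. APC, AXIN1 and LRP5 lay between the limits, as RNF43 did. A match describes the letters and does not show that a factor binds there.

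All 10 regulators averaged 30 counts or more over the 2 libraries and were compared. Counts were divided by library sizes scaled with the trimmed mean of M values (TMM) and are given as CPM, the counts expected in a library of 1000000. A gene was called higher or lower at 1.5-fold on the scale of log2(CPM + 1), and single folds are ratios of scaled CPM with an exact 95% interval. By this rule 4 regulators were lower after ADGRF4 siRNA (ZNRF3, DKK1, LRP6 and AXIN2), 1 was higher (TCF7L2) and 5 lay between. The same rule called 22.3% of the 11771 compared symbols lower and 21.1% higher. The median log2(CPM + 1) ratio of the 10 regulators was -0.39, beside -0.016 for all compared symbols, and the SD of the ratios was 0.99, beside 0.77. At 2-fold, 2 regulators were lower and 1 higher, where 10.4% and 7.84% of all compared symbols were. Because the regulators were chosen with earlier results known, these counts and medians describe the list and do not test it.

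**Figure D1:**
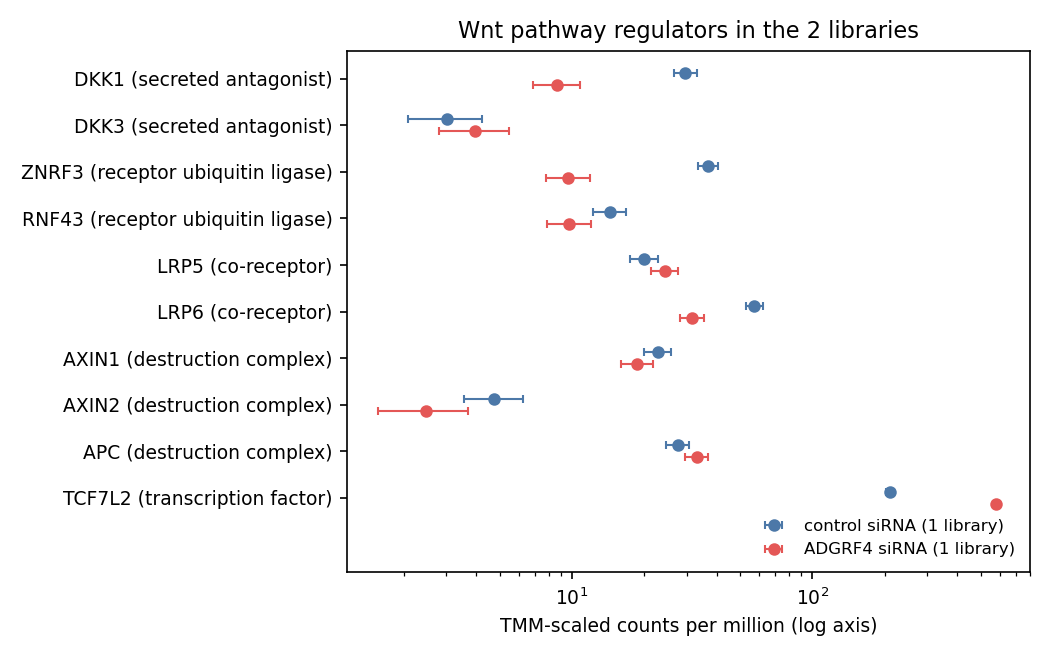
Scaled CPM of the 10 Wnt regulators (log axis) in the control siRNA library (blue) and the ADGRF4 siRNA library (red), with exact Poisson 95% intervals for counting error. ZNRF3 and DKK1 sit far lower and TCF7L2 far higher in the ADGRF4 siRNA library, and the intervals of the libraries overlap for DKK3, LRP5, AXIN1, AXIN2 and APC.

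Of the secreted antagonists, DKK1 was called lower and DKK3 lay between the limits. DKK1, which blocks LRP5 and LRP6, was read 324 times in the control library and 81 times in the ADGRF4 siRNA library, or 29.6 and 8.68 scaled CPM. It was 3.41-fold lower (2.67 to 4.41) after ADGRF4 siRNA, and 2.73% of all compared symbols had a ratio as low or lower. DKK3, a divergent family member that does not act on LRP6 as DKK1 does, had 33 and 37 counts, or 3.01 and 3.96 scaled CPM. Its ratio of 1.32 (0.80 to 2.17) is the only one among the 10 whose counting interval spans no difference, and at this depth neither a small fall nor a rise of up to 2.17-fold could be told from none.

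The receptor ubiquitin ligases were both lower in scaled CPM, but by different amounts. ZNRF3 had 403 and 90 counts, or 36.8 and 9.64 scaled CPM. It was 3.82-fold lower (3.03 to 4.85), the lowest ratio of the 10 regulators, and 1.89% of all compared symbols had a ratio as low or lower. RNF43, its closest relative, had 157 and 91 counts, or 14.3 and 9.75 scaled CPM. Its 1.47-fold lower value (1.13 to 1.93) missed the 1.5-fold limit. The last exon of RNF43 is overlapped by TSPOAP1-AS1 on the other strand and by transcripts of SUPT4H1 and AC004687.2 on the same strand in GENCODE 29. SUPT4H1 had 1800 and 1882 counts and TSPOAP1-AS1, under its older symbol BZRAP1-AS1, 93 and 77, so the RNF43 count is uncertain if reads were shared among them. Exons of DKK1 and TCF7L2 other than the last are overlapped on the other strand by PRKG1-AS1 (0 and 6 counts) and AL158212.2, and the last exon of AXIN2 by AC004805.1 on the same strand.

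**Figure D2:**
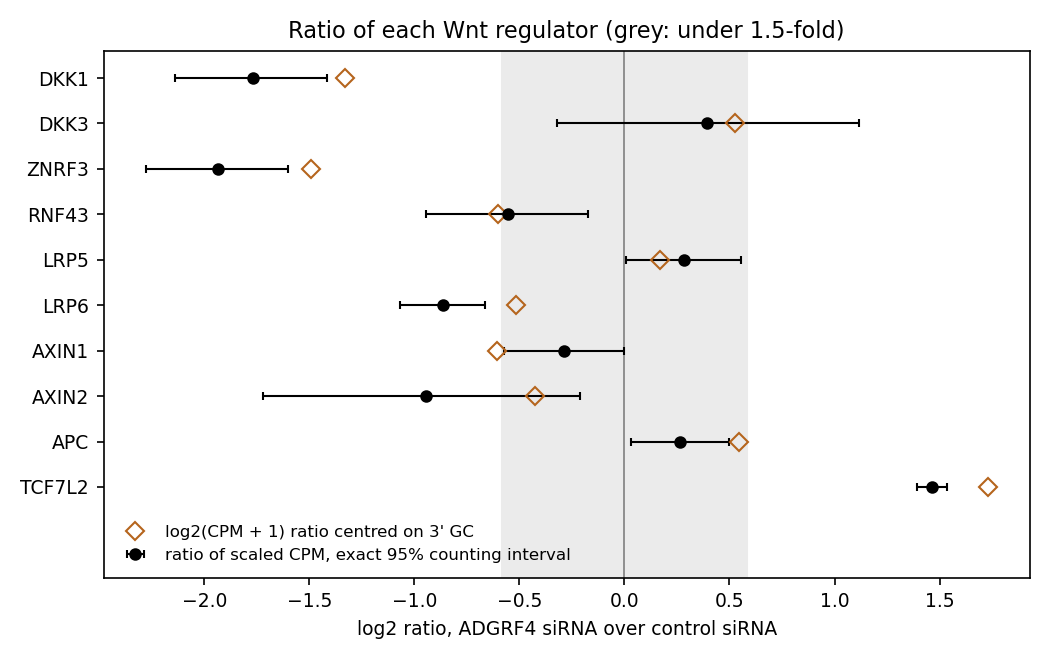
Ratio of each Wnt regulator between the ADGRF4 siRNA and the control library on a log2 axis. Black points are ratios of scaled CPM with exact 95% counting intervals, open diamonds are log2(CPM + 1) ratios after centring on the base composition of the 3' end, and grey marks differences under 1.5-fold; ZNRF3, DKK1 and TCF7L2 lie outside the grey by both measures.

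Of the 2 co-receptors, LRP6 was called lower and LRP5 lay between the limits. LRP6 had 628 and 294 counts, or 57.4 and 31.5 scaled CPM, and was 1.82-fold lower (1.58 to 2.10) after ADGRF4 siRNA, a call that was lost after centring on the base composition of its 3' end (log2 ratio -0.51). LRP5 had 219 and 227 counts, or 20.01 and 24.3 scaled CPM. Its ratio of 1.22 (1.01 to 1.47) lay inside the 1.5-fold limits. LRP6 had more 3' end counts than LRP5 in each library, but its lead was smaller after ADGRF4 siRNA.

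Of the destruction complex scaffolds, only AXIN2 passed the limit without centring on the base composition of the 3' end. AXIN2, the beta-catenin-induced scaffold, had 52 and 23 counts, or 4.75 and 2.46 scaled CPM. It was 1.93-fold lower (1.16 to 3.30), the widest interval among the regulators called. The call was lost after centring (log2 ratio -0.42). AXIN1, the scaffold that is not induced by the pathway, had 249 and 174 counts, or 22.7 and 18.6 scaled CPM, 1.22-fold lower (1.00 to 1.49). APC, the large protein that binds beta-catenin within the complex, had 301 and 308 counts, or 27.5 and 33.0 scaled CPM, a ratio of 1.20 (1.02 to 1.41). AXIN1 and APC lay inside the 1.5-fold limits, on opposite sides of no difference. After centring, AXIN1 passed the limit as lower (log2 ratio -0.61) and APC did not pass it.

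TCF7L2, the DNA-binding partner of beta-catenin, was the single regulator called higher. It was read 2302 times in the control and 5409 times in the ADGRF4 siRNA library, or 210 and 580 scaled CPM, 2.76-fold higher (2.62 to 2.90). Only 1.19% of all compared symbols had a ratio as high or higher. It also had the most 3' end counts of the 10 in each library; these counts depend little on transcript length. GENCODE 29 annotates 21 coding transcripts of TCF7L2 with 13 distinct 3' ends. The deposited values give a single count for the gene, and which ends it covers is not stated. If some ends were not counted, a change in the use of ends cannot be told apart from a change in the total.

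The relatives within each pair were also set against each other directly, which does not depend on how the libraries were scaled. DKK1 made up 90.8% of the counts of DKK1 and DKK3 in the control library (exact binomial 95% interval 87.3% to 93.6%) and 68.6% (59.5% to 76.9%) after ADGRF4 siRNA. Its ratio was 4.48-fold below that of DKK3 (2.55 to 7.87). ZNRF3 made up 72.0% (68.0% to 75.6%) of the counts of both ligases in the control and 49.7% (42.2% to 57.2%) after ADGRF4 siRNA, a 2.60-fold lower ratio than RNF43 (1.81 to 3.72). In the co-receptor pair the share of LRP5 was 25.9% (22.9% to 28.9%) and 43.6% (39.3% to 48.0%), and its ratio was 2.21-fold above that of LRP6 (1.74 to 2.81). The share of AXIN1 was 82.7% (77.97% to 86.8%) and 88.3% (83.0% to 92.5%), and the ratios of the 2 scaffolds differed by 1.58-fold with an interval of 0.910 to 2.81 that spans no difference. On the log2(CPM + 1) scale the difference was -1.97 for DKK1 against DKK3 and -1.32 for ZNRF3 against RNF43. It was 1.11 for LRP5 against LRP6 and 0.46 for AXIN1 against AXIN2. Centring these ratios on the base composition of the 3' end, described next, gave -1.86, -0.89, 0.68 and -0.18 in the same order. The direction within the scaffold pair thus turned.

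**Figure D3:**
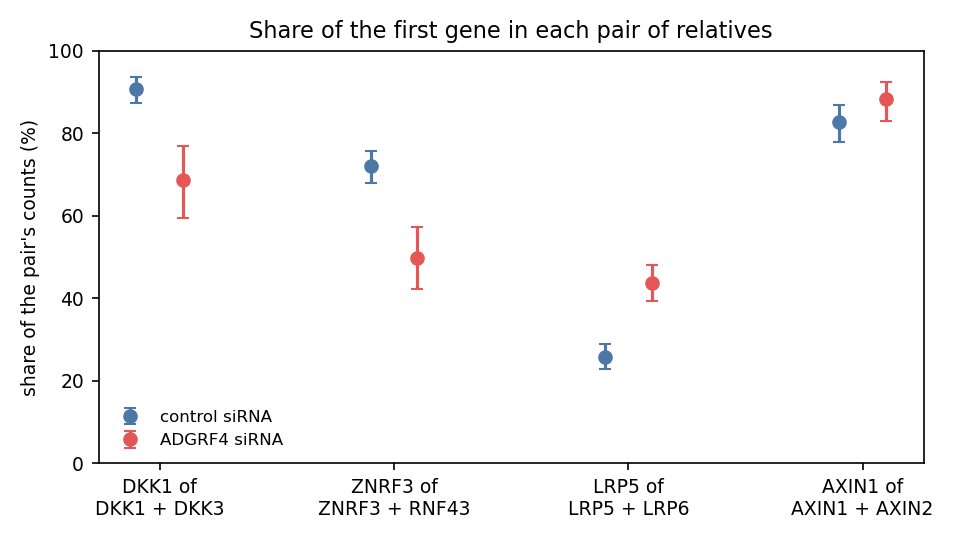
Share of each pair's counts (%) taken by the first gene named, in the control siRNA (blue) and ADGRF4 siRNA (red) libraries, with exact binomial 95% intervals for counting error. The shares of DKK1 and ZNRF3 are lower and that of LRP5 higher after ADGRF4 siRNA, while the intervals of AXIN1 overlap.

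Across all genes the ratio moved with base composition, and 7 of the 10 regulators have a 3' end of lower GC content than the median compared symbol (40.3%). Over the final 300 bases of a gene's longest GENCODE 29 transcript, GC content was 27.0% for ZNRF3, 29.3% for DKK1 and LRP6, 31.3% for AXIN2, 32.7% for APC and 33.0% for TCF7L2. It was 36.7% for DKK3, 45.3% for LRP5, 48.0% for RNF43 and 52.3% for AXIN1. In 20 bins of this measure the median log2 ratio of compared symbols ran from -0.35 in the bin of lowest GC to 0.84 in that of highest GC. After centring on the median of their bins, ZNRF3 stood at -1.49, DKK1 at -1.33 and TCF7L2 at 1.73, still past 1.5-fold. LRP6 (-0.51) and AXIN2 (-0.42) no longer passed the limit, whereas RNF43 (-0.60) and AXIN1 (-0.61) did. The count of lower regulators was thus 4 by either measure, with 2 genes in common, where centring left 19.1% of all compared symbols lower and 15.2% higher. What part base composition had in any of these differences was not tested. The 3' ends of other coding transcripts differ widely for some members, from 27.0% to 64.0% GC for ZNRF3 and up to 66.3% for TCF7L2, and which end was read is not recorded in the files. No 36-base stretch of the last 300 bases of any of the 10 was found in a transcript of another gene.

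**Figure D4:**
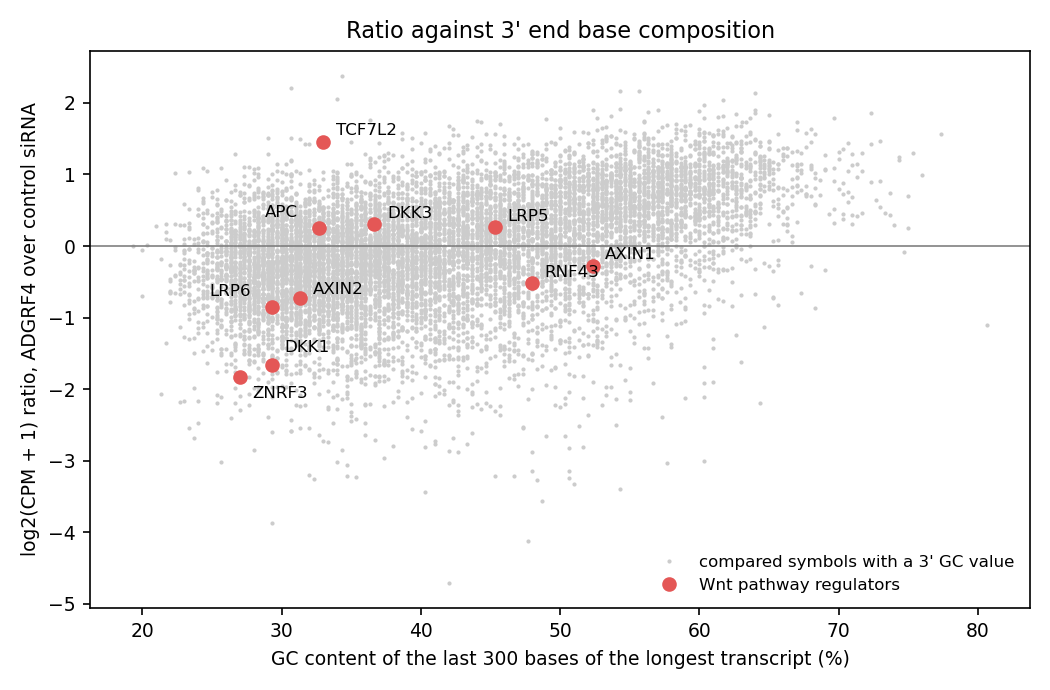
Log2(CPM + 1) ratio of the ADGRF4 siRNA over the control library against the GC content (%) over the final 300 bases of each gene's longest transcript, for compared symbols (grey) and the 10 Wnt regulators (red, named). TCF7L2 lies high and ZNRF3 and DKK1 lie low among symbols of like GC content. AXIN1 and RNF43 lie inside the rising cloud, under the median of symbols of like GC content, although neither ratio reaches 1.5-fold.

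The rest of the pathway was read from 9 lists by role, holding 115 other genes, of which 67 were compared. Of these, 17 (25.4%) were lower, 10 (14.9%) higher and 40 between, with a median log2 ratio of -0.054, so the lower share was near that of all compared symbols (22.3%) and the higher share under it (21.1%). After centring on 3' GC, 13 of the 67 were lower and 8 higher, beside 19.1% and 15.2% of all compared symbols. The named genes below are the most counted of each list and, where called, its lowest and highest ratio. Further genes were named after their values were seen. CTNNB1, which encodes beta-catenin, went from 2902 counts to 943, 2.62-fold lower (2.44 to 2.83) in scaled CPM after ADGRF4 siRNA, with a log2 ratio of -1.38 that was -1.22 after centring on 3' GC. It was the lowest of 18 other destruction and turnover genes, of which 2 were lower, 3 higher and 13 between. In that list the kinase gene GSK3A was 2.44-fold higher (2.16 to 2.76) and the kinase gene CSNK1A1, with 2673 and 3441 counts, 1.51-fold higher (1.44 to 1.59).

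**Figure D5:**
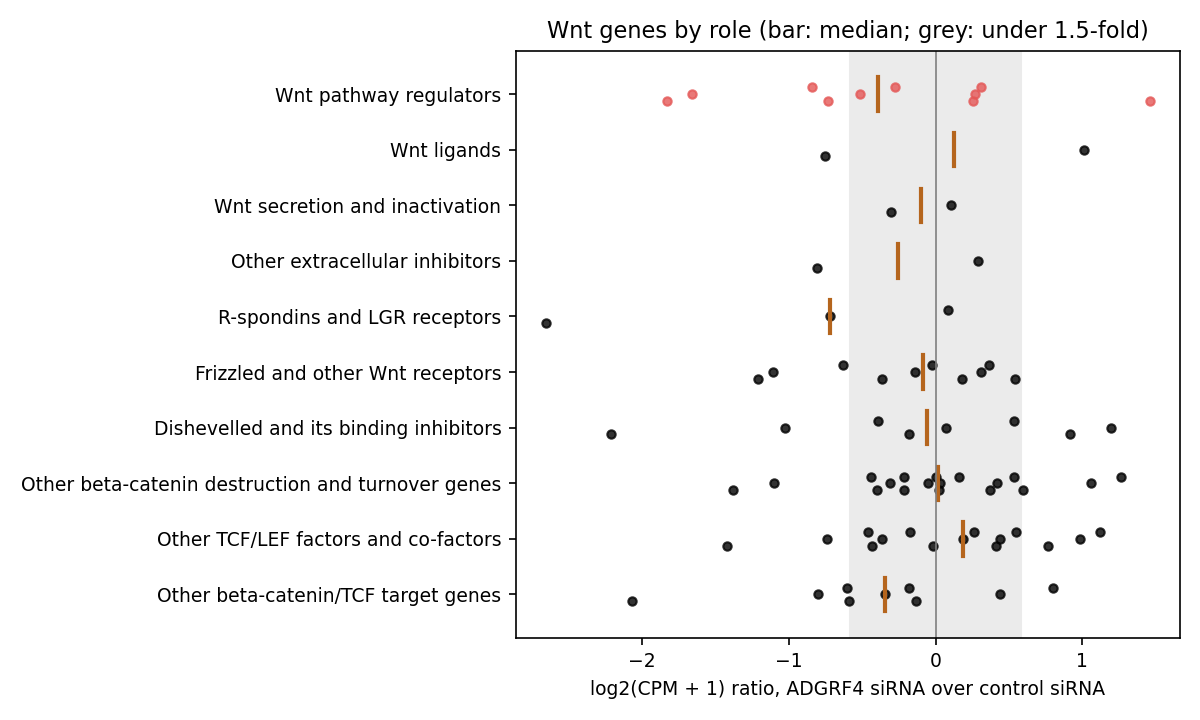
Log2(CPM + 1) ratios of the 10 Wnt regulators (red) and of the compared genes of 9 lists of other Wnt pathway genes by role (black), 1 point per gene, with the median of each list as a brown bar and differences under 1.5-fold in grey. Points lie on both sides of the grey in most lists; the lowest is RSPO1 among the R-spondins.

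At the cell surface, 3 of 7 R-spondin and LGR genes were compared, which encode the ligands and receptors that draw ZNRF3 and RNF43 off the membrane. Of these, 2 were lower, 0 higher and 1 between, beside shares of 22.3% lower and 21.1% higher over all compared symbols. RSPO1 had 914 and 116 counts, 6.72-fold lower (5.53 to 8.22), the lowest ratio of the other pathway genes compared. The receptor LGR4, from 1366 to 703 counts, was 1.66-fold lower (1.51 to 1.82), with a centred log2 ratio of -0.37 that missed the limit. RSPO3 had 1363 and 1231 counts and a ratio of 1.06 (0.980 to 1.15). Of 10 compared Frizzled and other Wnt receptors, 3 were lower, 0 higher and 7 between, beside the same shares over all compared symbols. Centred on 3' GC, FZD2 (log2 ratio -1.11), FZD6 (-0.76) and RYK (-0.92) stayed lower. FZD5 (0.88) and ROR1 (0.72) then passed the limit as higher. The pseudokinase receptor RYK was 2.42-fold lower (1.96 to 2.997), and FZD3, the most counted, had 415 and 402 counts and a ratio of 1.14 (0.988 to 1.31). Only 2 of 19 Wnt ligands were compared, and 11 had at most 3 counts in each library. WNT7B, with 1294 and 2230 counts, was 2.02-fold higher (1.89 to 2.17), but its 3' end is 65.0% GC and its centred log2 ratio was 0.17. WNT3 was 2.02-fold lower (1.16 to 3.66), from 45 to 19 counts, and its centred log2 ratio of -0.40 missed the limit.

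Among other extracellular inhibitors and their receptors, 2 of 13 were compared, and the Frizzled-related SFRP4 was 1.88-fold lower (1.35 to 2.66), from 117 to 53 counts, with a centred log2 ratio of -0.52 that missed the limit. DKK2 and DKK4 were at 0 in both libraries. PORCN, the acyltransferase that lipidates Wnt proteins, had 152 and 103 counts and lay between the limits with a ratio of 0.795 (0.613 to 1.03). Of 8 compared Dishevelled genes and inhibitors that bind Dishevelled, 2 were lower, 2 higher and 4 between. Over all compared symbols 22.3% were lower and 21.1% higher. CXXC5 was 5.35-fold lower (3.93 to 7.41) and NKD2 was 2.42-fold higher (1.92 to 3.07). After centring on 3' GC, the log2 ratio of CXXC5 was -2.36 and that of NKD2 0.48, under the limit. DVL1, the most counted, was 1.46-fold higher in scaled CPM (1.29 to 1.65) and lay between the limits.

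Of 15 compared TCF/LEF factors and co-factors other than TCF7L2, 3 were higher, 2 lower and 10 between. The shares over all compared symbols were 21.1% higher and 22.3% lower. The co-repressors TLE2 and CTBP1 lay at opposite ends of the list, TLE2 2.26-fold higher (1.84 to 2.78) and CTBP1 2.73-fold lower (2.38 to 3.13). Their centred log2 ratios were 0.54, under the limit, and -1.995. BCL9L, a co-activator of beta-catenin, went from 2444 counts to 4135, 1.98-fold higher (1.89 to 2.09), with a centred log2 ratio of 0.27. TCF7 and TCF7L1, the other members of the TCF7L2 family with enough counts, had log2 ratios of 0.44 and 0.18 and lay between the limits; they were named for their relation to TCF7L2 after their values were seen. LEF1 had 0 and 2 counts.

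Of 18 other known beta-catenin/TCF target genes, 9 were compared, with 4 lower, 1 higher and 4 between, beside shares of 22.3% lower and 21.1% higher over the 11771 compared symbols (median log2 ratio -0.35, and -0.29 after centring on 3' GC). Of the 4 lower genes, MYC (centred log2 ratio -1.71) and CCND1 (-1.17) stayed past the limit, while SOX9 (-0.47) and BAMBI (-0.43) missed it. Centring left 19.1% of all compared symbols lower. MYC was 5.60-fold lower (3.52 to 9.34), from 138 to 21 counts. EPHB3 was 1.98-fold higher (1.28 to 3.10), but its centred log2 ratio was 0.083. CD44, the most counted of the list, had 2100 and 1405 counts and a ratio of 0.785 (0.733 to 0.840). These genes are also controlled by many other pathways, and the targets most used as a readout of the pathway in the gut had few or no counts: LGR5 was at 0 in both libraries, NOTUM had 0 and 2 counts and SP5 1 and 0.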

How the data were processed

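Messenger RNA of A549 cells was profiled in 2 libraries, per the labels' protocols from Trizol RNA with the Lexogen QuantSeq kit, which reads mainly the 3' end of polyadenylated transcripts. The deposited values are the authors' raw read counts, whole numbers listed by gene symbol. Bowtie2, edgeR and hg19 are named in the submitters' processing notes; neither these notes nor the labels give versions, the annotation, the strand setting or the treatment of reads with several positions. Rows of 1 symbol were summed (286 symbols, none of them among the 10 regulators). Library sizes were scaled by TMM in edgeR 4.0.16 under R 4.3.3, and log2 ratios were taken with a pseudocount of 1 CPM over symbols that averaged 30 counts or more. Intervals of ratios are exact (Clopper-Pearson), and intervals of pairs are exact conditional intervals, all at 95% (scipy 1.17.1). They cover counting error only, because each treatment has 1 library. Reads without molecular identifiers are not independent molecules, so the intervals can be too narrow even for counting error. The depth of 10396047 and 9825320 counts limits the precision of genes with few counts, such as DKK3 and AXIN2. The ratio and interval calculations were tested on simulated Poisson counts. The simulation held no trend with base composition and no spread between replicates, so it could not test the calls made here.

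The 10 genes and the lists were chosen with earlier results of these data known. Named genes were all 10 regulators, ADGRF4, CTNNB1 and, for each list of other pathway genes, the most counted gene and the highest and lowest ratio called. TCF7, TCF7L1, LEF1, LGR4, DKK2, DKK4, LGR5, NOTUM, SP5 and the cell type markers fall outside this rule and were named after their values were seen. The same holds for FZD2, FZD5, FZD6, ROR1, CCND1, SOX9 and BAMBI. GC content was found for 11139 compared symbols (94.6%) from GENCODE 29 (GRCh38), which was used for names and composition only, since the counts were made on another build. Promoter sequences are from RefSeq (GRCh38.p14). Protein identity between relatives was planned and not analysed here. Alternatives were total-count, upper-quartile and DESeq2 1.42.0 scaling, pseudocounts of 0.1 and 5, count limits of 10 and 100 and none, a 2-fold limit, centring on 3' GC, thinning of the control library and keeping the first row of each symbol. For the pairs, a pseudocount of 1 CPM was added after seeing the data.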

Additional observations from a re-analysis of the deposited data

How the results depend on the processing

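Under the 12 alternatives, ZNRF3 (log2 ratio -1.97 to -1.49) and DKK1 (-1.80 to -1.33) were lower and TCF7L2 (1.31 to 1.73) higher in each. The other count limits and the first-row setting could not change these ratios. Each of these genes averaged more than 100 counts and is on a single row. LRP6 was not called with a 2-fold limit or after centring on 3' GC (-0.51), and AXIN2 was not called in those settings or with a pseudocount of 5 CPM (-0.39). RNF43 was called lower under total-count scaling (-0.65) and after centring (-0.60), and AXIN1 after centring (-0.61); DKK3, LRP5 and APC lay between the limits wherever they were compared. DKK3 and AXIN2 dropped out at a limit of 100 counts. With a 2-fold limit 2 regulators were lower, and the other pathway genes gave 5 higher and 9 lower, because fewer genes pass a higher limit. Under total-count scaling the regulators' median was -0.53, where the median of all compared symbols was -0.16. The log2 difference of LRP5 against LRP6 was 1.15 without a pseudocount, 1.11 with 1 CPM, and 0.68 with 1 CPM and centring on 3' GC. That of AXIN1 against AXIN2 was 0.66, 0.46 and -0.18 in the same settings; the cause was not tested. No paired analysis was possible because each treatment has 1 library, and for the same reason no library could be left out.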
